A study of Mus musculus with 8 samples.

Results

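Kallikreins, matrix metalloproteinases, membrane and secreted disintegrin metalloproteinases and cathepsins are the main extracellular and lysosomal protease families measured on these arrays. Members were taken by gene symbol: symbols that start with Klk, Mmp and a digit, Adam and a digit or Adamts and a digit, and Cts followed by 1 letter or digit, with Ctss left out. Each gene was read by the probe set of 1 symbol with the highest mean. This gave 97 of 17097 genes, made up of 18 kallikreins, 18 Mmp, 26 Adam, 14 Adamts and 21 cathepsin genes. Of these, 58 passed the filter on dim genes (log2 signal above 4.85 in at least 2 of 8 arrays) and were tested, and 39 did not pass and were not tested. The filter looks at every array alike, and 55 of the 58 lay above 4.85 in all 8 arrays, the exceptions being Adam24, Adamts18 and Ctsk.

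The cells came from back skin of mice labelled K14-CreER/Ptch1cKO, which form basal cell carcinoma, a tumour of the skin that depends on Hedgehog signalling. The inducible Cre is driven by the keratin 14 promoter, so deletion of Ptch1 is aimed at basal keratinocytes, and every group carried it. Mice were untreated or given vismodegib, an inhibitor of Smoothened, the activator of the pathway. Live epidermal cells stained for surface Lrig1 were sorted by an endogenous Lgr5-GFP reporter into Lgr5-Lrig1+ (Lgr5-negative) and Lgr5+Lrig1+ (Lgr5-positive) cells. The 4 groups were untreated Lgr5-negative, untreated Lgr5-positive, vismodegib Lgr5-negative and vismodegib Lgr5-positive, each n = 2 mice, and both populations of a mouse came from the same animal. The labels spell the negative population "Lrg5-Lrig1+". They give no mouse age, inducer dose, drug dose, drug duration or sham treatment of the untreated mice.

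Kallikreins are secreted serine proteases, and in skin several of them cut the desmosomal links between cornified cells, held back by the inhibitor Spink5. Matrix metalloproteinases and Adamts proteases are zinc enzymes that cut collagens, gelatin and proteoglycans. Several Adam proteins, though not all, are membrane sheddases that release growth factors, cytokine receptors and Notch fragments from the cell surface. Cathepsins are mostly cysteine or aspartic proteases of the lysosome, which some cells also secrete, and cystatins inhibit the cysteine ones.

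The sort was visible in Lgr5 itself, at 8.40 to 8.52 in untreated Lgr5-negative and 10.98 to 11.00 in untreated Lgr5-positive cells, then 4.83 to 5.46 and 9.44 to 10.03 after vismodegib. Gli1, a direct target of the pathway that the drug blocks, lay at 8.75 to 10.13 in untreated and 6.37 to 6.56 in vismodegib arrays. All 10 measured keratinocyte markers were above 4.85 in every array, with array means of 11.04 to 11.47. Most markers of macrophages and Langerhans cells moved with the groups. Their mean over 20 genes was 6.77 to 7.10, 5.51 to 5.88, 7.64 to 7.77 and 8.02 to 8.44 in the 4 groups in the order above. With vismodegib 16 of the 18 tested rose in Lgr5-positive cells (against 6.37% of all genes) and 4 rose in Lgr5-negative cells (against 1.26%). In untreated mice 8 were lower in Lgr5-positive than Lgr5-negative cells (against 10.9% of all genes). Of the defining markers Cd163 was at or under 4.85 in all arrays, while Ptprc lay at 4.33 to 4.70 in untreated and 6.86 to 7.74 in vismodegib Lgr5-positive cells. Tested markers that did not pass for the drug in Lgr5-positive cells were Cd207, a Langerhans cell marker, and Aif1 (log2 differences -0.07 and 0.68). Cd207 stood at 6.09 and 5.8 in untreated and 5.7 and 6.05 in vismodegib Lgr5-positive cells. The part of macrophages and Langerhans cells in the protease values below was not tested. In bulk samples fewer cells of a type and less RNA per cell cannot be told apart.

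Upstream promoter sequence is shown for 6 members, 250 bases before the RefSeq start in GRCm38.p6, written 5′ to 3′ on the gene's strand. Klk11, Klk10 and Klk8 are shown because these neighbours in the kallikrein cluster were lower together in untreated Lgr5-positive cells. Mmp10 and Mmp13 stand for the Mmp cluster of chromosome 9, and Ctsd for the lysosomal genes. Capitals mark exact matches to TGANTCA (the AP-1 site), TATAAA (the TATA box) or TCACGTGA (the CLEAR element bound by the lysosomal regulator Tfeb and its relatives); both strands were searched, also for GACCACCCA (the Gli site).
Klk11 promoter, chr7:43774367-43774616, plus strand: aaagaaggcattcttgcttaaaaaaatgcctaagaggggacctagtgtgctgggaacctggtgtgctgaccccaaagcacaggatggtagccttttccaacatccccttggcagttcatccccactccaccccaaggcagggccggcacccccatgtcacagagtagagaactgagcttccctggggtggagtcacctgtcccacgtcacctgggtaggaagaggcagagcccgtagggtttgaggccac
Klk10 promoter, chr7:43780804-43781053, plus strand: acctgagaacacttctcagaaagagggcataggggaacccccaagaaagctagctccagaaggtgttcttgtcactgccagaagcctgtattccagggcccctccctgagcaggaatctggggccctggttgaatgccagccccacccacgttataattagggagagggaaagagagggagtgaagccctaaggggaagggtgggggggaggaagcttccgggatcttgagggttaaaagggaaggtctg
Klk8 promoter, chr7:43797327-43797576, plus strand: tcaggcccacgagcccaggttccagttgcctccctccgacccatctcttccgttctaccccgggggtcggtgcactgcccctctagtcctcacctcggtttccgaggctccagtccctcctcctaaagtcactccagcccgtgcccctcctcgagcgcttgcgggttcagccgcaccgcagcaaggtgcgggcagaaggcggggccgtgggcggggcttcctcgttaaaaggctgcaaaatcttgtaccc
Mmp10 promoter, chr9:7502092-7502341, plus strand: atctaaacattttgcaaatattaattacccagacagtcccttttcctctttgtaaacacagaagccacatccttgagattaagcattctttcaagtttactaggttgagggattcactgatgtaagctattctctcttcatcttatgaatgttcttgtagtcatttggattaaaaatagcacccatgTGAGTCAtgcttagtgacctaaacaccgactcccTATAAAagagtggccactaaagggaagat
Mmp13 promoter, chr9:7272264-7272513, plus strand: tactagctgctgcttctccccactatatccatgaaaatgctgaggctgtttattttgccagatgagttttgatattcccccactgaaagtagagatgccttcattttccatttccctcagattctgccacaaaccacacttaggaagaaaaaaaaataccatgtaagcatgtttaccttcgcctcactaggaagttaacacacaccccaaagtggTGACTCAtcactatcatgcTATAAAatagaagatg
Ctsd promoter, chr7:142387828-142388077, minus strand: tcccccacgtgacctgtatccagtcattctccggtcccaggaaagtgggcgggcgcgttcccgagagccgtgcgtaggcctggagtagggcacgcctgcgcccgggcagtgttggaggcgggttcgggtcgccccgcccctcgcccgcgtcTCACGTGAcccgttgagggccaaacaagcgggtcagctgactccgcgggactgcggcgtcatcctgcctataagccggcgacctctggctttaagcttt
Over all 32851 RefSeq windows of this length, 6.749% held TGANTCA, 12.368% TATAAA, 0.785% TCACGTGA and 0.225% GACCACCCA. The 67 members with a window had 75 windows. Of these windows 10 held TGANTCA, 14 TATAAA, 2 TCACGTGA (in Ctsa and Ctsd) and 0 GACCACCCA, for each motif in as many members. No match overlapped a match to another motif, while some TATAAA matches overlapped each other (in Ctsm and Cts3). TGANTCA and TATAAA occurred together in 7 of the 75 windows, from 7 members, against 1.215% of all windows. All 7 (Mmp1a, Mmp1b, Mmp3, Mmp7, Mmp10, Mmp13 and Mmp20) belong to the chromosome 9 cluster, which holds 9 members. In Mmp10 the AP-1 letters lie 63 to 57 bases and the TATA letters 29 to 24 bases before the start, and in Mmp13 35 to 29 and 16 to 11 bases. In Ctsd the CLEAR letters lie 99 to 92 bases before it. The 3 kallikrein windows hold none of the 4 motifs, which says only that these letters are not in these windows.

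Array values below are RMA signals on the log2 scale, so that a difference of 1 is 2-fold. They are given for mouse 1 and then mouse 2 of each group. Differences are log2 with the standard error (SE) of the limma fit, and a member changed where its p adjusted over 14403 genes was under 0.05. Of the 58 tested members, 23 passed in at least 1 of 5 comparisons and 35 in none. The share of all genes that passed in at least 1 comparison was not counted. Such counts, here and by family, thus do not show whether members passed more often than other genes. Shares over all genes are given below for each comparison.

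The comparison of the populations of untreated mice had the most calls. Of 58 members, 19 passed (32.8%, against 17.1% of all tested genes), 6 higher and 13 lower in Lgr5-positive cells, against 6.21% and 10.9% of all genes in the same directions. The median difference was 0.02 in members and 0.02 in all genes. With vismodegib, 14 members passed in Lgr5-positive cells (24.1%, against 10.9%), 11 rose and 3 fell (against 6.37% and 4.51% of all genes), with a median of 0.07 against -0.01. In Lgr5-negative cells 3 members passed (5.17%, against 3.32%), and all 3 fell (against 2.06% of all genes). Between the populations of vismodegib mice only Ctsl passed (1.72%, against 0.472%), higher in Lgr5-positive cells as were 0.340% of all genes. There 13 of the 58 members had an unadjusted p under 0.05, as had 1749 of all 14403 genes. The vismodegib effect differed between the populations for 2 members, Klk11 and Mmp2 (3.45%, against 1.40%). In both it was higher in Lgr5-positive cells, as in 0.993% of all genes, and in no member was it lower, against 0.410%.

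Groups that do not overlap were frequent with 2 mice each. Untreated and vismodegib Lgr5-positive values did not overlap in 35 members (60.3%, against 54.8% of all genes), and untreated Lgr5-negative and Lgr5-positive values in 42 (72.4%, against 64.6%). The shares were 55.2% against 51.4% for the drug in Lgr5-negative cells and 53.4% against 43.7% for the populations after the drug.

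Leaving out 1 array at a time moved these counts. The untreated population count was 6 without the untreated Lgr5-negative array of mouse 2 and 9 without that of mouse 1. The count for vismodegib in Lgr5-positive cells was 5 without the vismodegib Lgr5-positive array of mouse 1 and 7 without that of mouse 2. The count in Lgr5-negative cells was 0 without the untreated Lgr5-negative array of mouse 2, 1 without that of mouse 1 or without the vismodegib Lgr5-negative array of mouse 2, and 5 without either untreated Lgr5-positive array. Between the populations of vismodegib mice it was 0 without either untreated Lgr5-negative array and 2 without either untreated Lgr5-positive array or the vismodegib Lgr5-positive array of mouse 2. For the difference between the effects it was 0 without the vismodegib Lgr5-positive array of mouse 1 or the untreated Lgr5-negative array of mouse 2, 1 without the untreated Lgr5-negative array of mouse 1 or either vismodegib Lgr5-negative array, and 6 without the untreated Lgr5-positive array of mouse 2.

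**Figure D1:**
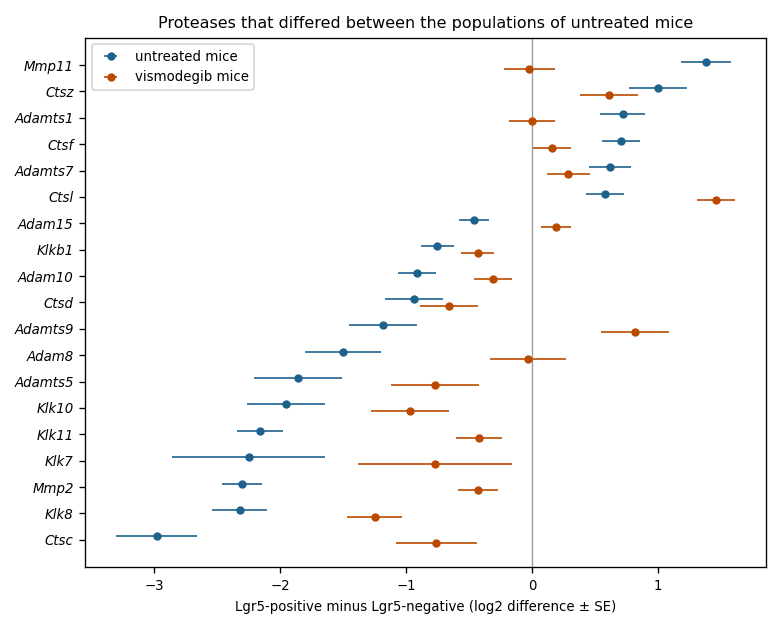
Difference between Lgr5-positive and Lgr5-negative cells (log2, horizontal axis; bars are the SE) for the 19 proteases that passed in untreated mice (blue), with the same difference in vismodegib mice (orange). In untreated mice 13 lie below 0, from -2.98 for Ctsc to -0.46 for Adam15. Ctsl is the gene that passed in vismodegib mice.

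The 13 members lower in untreated Lgr5-positive cells spanned all 5 families. Their differences ran from -2.98 to -0.46 with a median of -1.86. In vismodegib mice the same 13 ran from -1.25 to 0.82 with a median of -0.43, 11 of them below 0. The 6 higher members ran from 0.58 to 1.38 in untreated and from -0.02 to 1.46 in vismodegib mice. Both sets were taken by their untreated difference, and that choice alone tends to make the vismodegib differences smaller. They were not compared with other genes taken the same way. Over all genes 17.1% passed between the untreated populations and 0.472% between those of vismodegib mice. The drug comparison in Lgr5-positive cells and the untreated population comparison share the untreated Lgr5-positive arrays, so a member low in those arrays by chance would differ in both.

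Among kallikreins, 5 of 14 tested members (35.7%, against 10.9% of all genes) were lower in untreated Lgr5-positive cells. None was higher, against 6.21% of all genes. Klk11, Klk8, Klk10 and Klk7 lay 3.88-fold to 5.01-fold lower. With vismodegib Klk11 and Klk8 rose in Lgr5-positive cells, 5.71-fold and 1.94-fold. No kallikrein passed in Lgr5-negative cells (against 3.32% of all genes). There 2 of 14 had an unadjusted p under 0.05, as had 2699 of all 14403 genes. RefSeq places Klk11, Klk10, Klk9, Klk8, Klk7 and Klk6 in that order on chromosome 7 (GRCm38.p6), where 17 of the 18 kallikrein members lie.

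Klk11 encodes a trypsin-like kallikrein of stratified and glandular epithelia. It stood at 9.26 and 9.19 in untreated Lgr5-negative, 6.80 and 7.32 in untreated Lgr5-positive, 9.90 and 10.09 in vismodegib Lgr5-negative and 9.67 and 9.48 in vismodegib Lgr5-positive cells. The untreated Lgr5-positive arrays were the low ones, and every other array lay well above them. The drug difference in Lgr5-positive cells was 2.51 ± 0.18 (SE; adjusted p = 0.000372) and the untreated population difference -2.16 ± 0.18 (adjusted p = 0.000865). In Lgr5-negative cells the drug difference was 0.77 ± 0.18 (adjusted p = 0.0692). The effects differed by 1.74 ± 0.26 (adjusted p = 0.0295), while the populations of vismodegib mice differed by -0.42 ± 0.18 (adjusted p = 0.417).

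Klk8 (neuropsin) is a trypsin-like protease of the upper epidermis. Its values were 9.98 and 9.67, 7.18 and 7.81, 9.72 and 9.69, and 8.59 and 8.31 in the same group order. The 4 groups were ordered with untreated Lgr5-positive lowest and vismodegib Lgr5-positive next, and neither overlapped any other group. Between the untreated populations it differed by -2.32 ± 0.22 (adjusted p = 0.00124), and the drug difference in Lgr5-positive cells was 0.96 ± 0.22 (adjusted p = 0.033). In vismodegib mice the populations differed by -1.25 ± 0.22 (adjusted p = 0.0783). In Lgr5-negative cells the drug difference was -0.12.

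Klk10, a kallikrein-like serine protease of epithelia, stood at 9.93 and 9.76, 7.35 and 8.43, 9.09 and 9.09, and 8.27 and 7.97. Both Lgr5-positive groups were below both Lgr5-negative groups, and the Lgr5-positive groups overlapped each other. In untreated mice Lgr5-positive minus Lgr5-negative was -1.95 ± 0.31 (adjusted p = 0.00694), and the drug difference in Lgr5-positive cells was 0.23.

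Klk7 is the chymotrypsin-like enzyme that cuts corneodesmosomes. It stood at 11.07 and 10.24, 7.47 and 9.34, 11.17 and 10.99, and 10.85 and 9.76. The untreated Lgr5-positive arrays were lowest but lay far apart from each other. The untreated population difference of -2.25 ± 0.61 passed (adjusted p = 0.0433), and the drug difference of 1.90 ± 0.61 did not pass (adjusted p = 0.094).

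Klkb1 encodes plasma prekallikrein, an enzyme of the contact system made mainly by liver, and lies on chromosome 8 outside the kallikrein cluster. It stood at 6.54 and 6.72, 5.88 and 5.87, 6.89 and 6.65, and 6.40 and 6.27, lowest in untreated Lgr5-positive cells (difference -0.75 ± 0.13, adjusted p = 0.0102). Klk6, another trypsin-like kallikrein, stood at 7.55 and 6.84, 6.07 and 6.42, 6.81 and 6.30, and 6.87 and 5.85 and passed in none. Its untreated population difference of -0.95 ± 0.37 had an adjusted p of 0.125, or 0.05, just under the threshold, with the mouse as a block. Of the 11 glandular Klk1 and Klk1b genes 8 were tested, and 0 passed in any comparison. Over all genes 0.472% to 17.1% passed in a single comparison. Their log2 differences lay between -0.49 and 0.36, and near-identical copies in this group can share probe signal.

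With 1 array left out at a time, the untreated population differences of Klk11, Klk8 and Klk10 and the drug effect on Klk11 in Lgr5-positive cells passed in 8 of 8 fits. The Klk8 drug effect passed in 3, not without either untreated Lgr5-negative array, either vismodegib Lgr5-positive array or the untreated Lgr5-positive array of mouse 1 (adjusted p up to 0.188). The difference of Klk11 effects passed in 2 (only those without an untreated Lgr5-positive array, adjusted p otherwise up to 0.14), and Klk7 in 1 (without the untreated Lgr5-positive array of mouse 2, adjusted p otherwise up to 0.204). The Klk7 value was -1.32 without the untreated Lgr5-positive array of mouse 1 and -3.19 without that of mouse 2. Klkb1 passed in 7, not without the untreated Lgr5-negative array of mouse 2 (adjusted p = 0.0931).

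**Figure D2:**
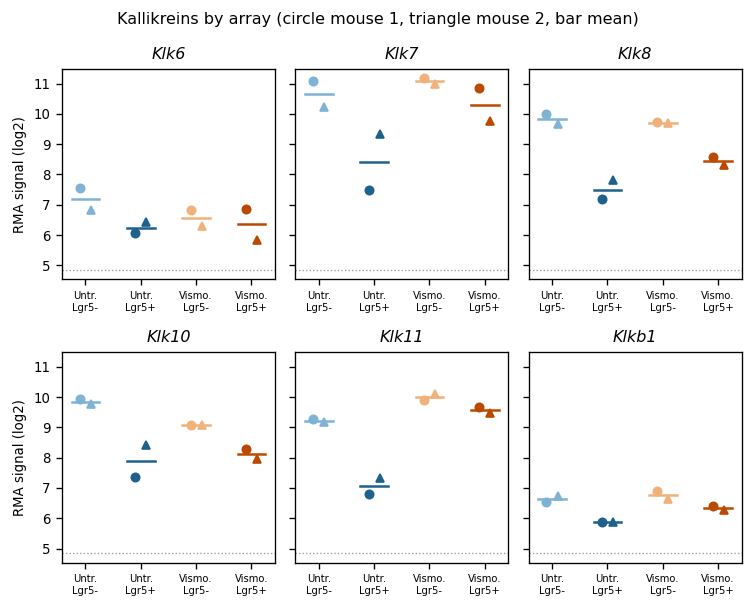
RMA signal (log2) of 6 kallikreins by group and array; circles are mouse 1, triangles mouse 2, bars the group mean, and the dotted line the filter at 4.85. For Klk8, Klk10, Klk11 and Klkb1 both untreated Lgr5-positive arrays lie below both untreated Lgr5-negative arrays, and for Klk7 they lie far apart from each other (7.47 and 9.34).

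Partners of the kallikreins were read from a list of inhibitors, activators and desmosomal substrates, with 14 tested. In untreated Lgr5-positive cells 4 of the 14 were lower and 0 higher, against 10.9% and 6.21% of all genes (list median -0.47, against 0.02). These were Dsc1 (-2.02 ± 0.23), a desmocollin of the upper epidermis, Spink5, Tmprss13 (-0.77 ± 0.14), a membrane serine protease, and the desmocollin Dsc2 (-0.68 ± 0.13). Spink5 itself was dim, at 5.39 and 6.22 in untreated Lgr5-negative and 4.16 and 4.41 in untreated Lgr5-positive cells. The lower values are under the filter value, so the size of the difference is not given (adjusted p = 0.0454). With vismodegib in Lgr5-positive cells only Dsc2 rose (0.63 ± 0.13), against 6.37% of all genes. Spint2 (0.54) and Tmprss13 (0.53) had adjusted p of 0.0509 and 0.0503, or 0.0496 and 0.0488 with the mouse as a random block, and the list median was 0.45 against -0.01 for all genes.

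Among matrix metalloproteinases, 10 of 18 members were tested and Mmp2, Mmp11, Mmp14 and Mmp19 passed in some comparison. In Lgr5-positive cells Mmp19 and Mmp2 rose with vismodegib, 7.58-fold and 1.96-fold, while Mmp11 and Mmp14 fell, 2.49-fold and 1.77-fold. These are 40% of the tested Mmp genes, while 10.9% of all genes passed there. Untreated Lgr5-positive cells had 4.91-fold less Mmp2 and 2.61-fold more Mmp11 than untreated Lgr5-negative cells.

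Mmp2 (gelatinase A) cuts denatured collagen and type IV collagen. It stood at 8.95 and 9.02, 6.73 and 6.64, 8.27 and 7.91, and 7.80 and 7.51. Untreated Lgr5-negative cells were highest, untreated Lgr5-positive cells lowest, and the vismodegib groups lay between them without overlap. The untreated population difference was -2.30 ± 0.16 (adjusted p = 0.000544). With the drug Mmp2 rose by 0.97 ± 0.16 in Lgr5-positive cells (adjusted p = 0.00934) and fell by 0.90 in Lgr5-negative cells (SE 0.16, adjusted p = 0.0324). The effects differed by 1.87 ± 0.22 (adjusted p = 0.0171), and the populations of vismodegib mice by -0.43 (adjusted p = 0.345).

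Mmp14 is the membrane enzyme that activates pro-Mmp2. It stood at 9.37 and 9.20, 9.59 and 9.92, 8.44 and 8.76, and 8.87 and 8.97, so that every vismodegib array lay below every untreated one. The drug difference was -0.83 ± 0.16 in Lgr5-positive cells (adjusted p = 0.0194) and -0.68 in Lgr5-negative cells (adjusted p = 0.0721). A further probe set gave -0.79 and -0.64.

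Mmp11 (stromelysin-3) is known from stroma and remodelling tissue and does not cut most matrix proteins. It stood at 5.42 and 5.68, 7.08 and 6.79, 5.45 and 5.83, and 5.41 and 5.83. Only the untreated Lgr5-positive arrays stood high, and the other 3 groups overlapped. Between the untreated populations it differed by 1.38 ± 0.20 (adjusted p = 0.00542), and the drug difference in Lgr5-positive cells was -1.31 ± 0.20 (adjusted p = 0.00759). The difference between the drug effects was -1.40 (adjusted p = 0.0696), and its adjusted p was 0.0399 with the mouse as a block.

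Mmp19, which cuts components of basement membranes, stood at 6.90 and 7.56, 6.21 and 6.41, 6.77 and 7.56, and 9.95 and 8.51. Both vismodegib Lgr5-positive arrays were above all others and differed from each other by more than the arrays of any other group. With the drug, Lgr5-positive cells differed by 2.92 ± 0.47 (adjusted p = 0.00855), against -0.06 in Lgr5-negative cells. The difference of effects was 2.99 ± 0.67 (adjusted p = 0.0808) and the population difference in vismodegib mice 2.06 ± 0.47 (adjusted p = 0.146). The other Mmp19 probe set was too dim to be tested, with a mean of 4.44. Macrophage markers were also highest in the vismodegib Lgr5-positive arrays, at 8.44 and 8.02. With the drug in Lgr5-negative cells their median difference was 0.88. The part of macrophages in the Mmp19 value was not tested.

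Of the Mmp genes that passed nowhere, Mmp17, a membrane-anchored member, stood at 6.21 and 6.06, 6.22 and 6.17, 7.52 and 6.76, and 6.96 and 6.80. Vismodegib arrays were above untreated ones, with differences of 1.00 (adjusted p = 0.0645) in Lgr5-negative and 0.68 (adjusted p = 0.109) in Lgr5-positive cells. Mmp9 (gelatinase B) stood at 5.68 and 8.49, 5.90 and 6.12, 5.84 and 5.93, and 6.71 and 6.44, with a single high array. Without the untreated Lgr5-negative array of mouse 1 its untreated population difference was -2.48 (adjusted p = 0.00439), a value set by the remaining high array. The untested stromelysin Mmp10 (4.58 and 5.58 in untreated Lgr5-negative cells) and collagenase Mmp13 (4.14 and 5.16) were highest in the same array of mouse 2. In the other groups Mmp10 lay at 4.62 to 4.83 and Mmp13 at 3.48 to 3.86. Mmp12 (macrophage elastase), untested, stood at 6.62 and 4.65 in vismodegib Lgr5-positive cells and 4.13 to 4.82 elsewhere. Mmp9, Mmp10, Mmp12, Mmp13 and Mmp17 were chosen after their values were seen.

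The drug effect on Mmp19 in Lgr5-positive cells and the untreated population differences of Mmp2 and Mmp11 passed in 8 of 8 fits that left out 1 array. The Mmp19 value was 2.20 without the vismodegib Lgr5-positive array of mouse 1 and 3.64 without that of mouse 2. The drug effects on Mmp2 and Mmp11 in Lgr5-positive cells passed in 7 each, not without the vismodegib Lgr5-positive array of mouse 1 (adjusted p = 0.0749 and 0.0593). Mmp14 passed in 5, not without either vismodegib Lgr5-positive array or the untreated Lgr5-positive array of mouse 2 (adjusted p up to 0.124). The Mmp2 effect in Lgr5-negative cells passed in 5, not without either untreated Lgr5-negative array or the vismodegib Lgr5-negative array of mouse 2 (adjusted p up to 0.227). The difference of Mmp2 effects passed in 5, not without either untreated Lgr5-negative array or the vismodegib Lgr5-positive array of mouse 1 (adjusted p up to 0.0967).

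**Figure D3:**
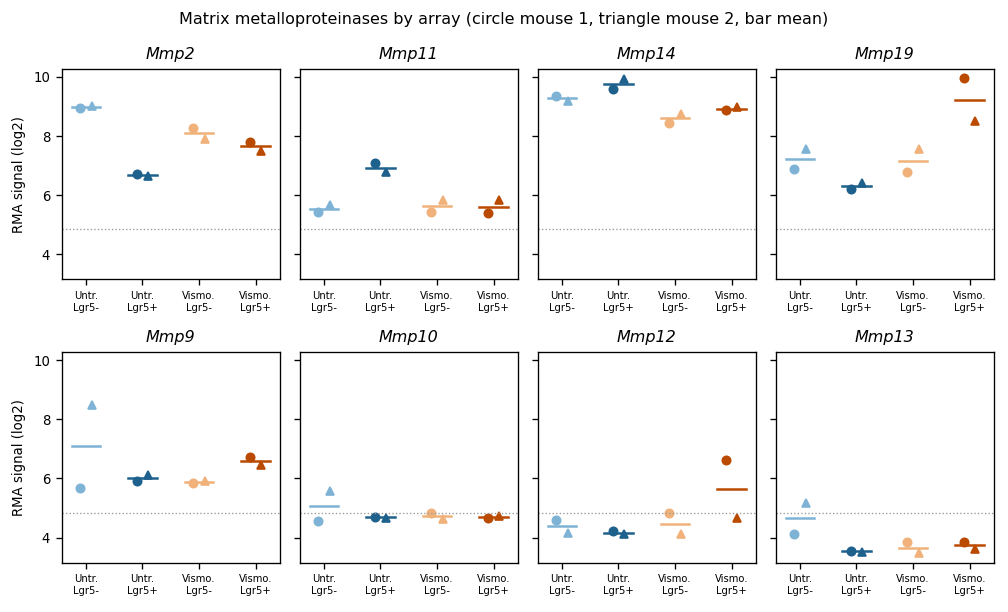
RMA signal (log2) of 8 matrix metalloproteinases by group and array; circles are mouse 1, triangles mouse 2, bars the group mean, and the dotted line the filter at 4.85. Mmp2 is lowest and Mmp11 highest in untreated Lgr5-positive cells, Mmp19 is highest in vismodegib Lgr5-positive cells, and Mmp9, Mmp10 and Mmp13 each have their highest value in the untreated Lgr5-negative array of mouse 2.

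The 20 tested inhibitors and regulators of metalloproteinases had a median untreated population difference of 0.50 (all genes 0.02). In Lgr5-positive cells 6 were higher and 0 lower, against 6.21% and 10.9% of all genes. They were Mme (1.74 ± 0.25), a membrane peptidase, Timp2 (1.54 ± 0.19), the inhibitor that also takes part in Mmp2 activation, Adamtsl4 (1.06 ± 0.11), Tspan15 (1.01 ± 0.20), a tetraspanin partner of Adam10, Timp3 (0.79 ± 0.19), an inhibitor of Adam17 and Adamts proteases, and Rhbdf1 (0.69 ± 0.12), a partner of Adam17. Timp2 stood at 9.15 and 8.65, 10.55 and 10.32, 8.78 and 9.02, and 9.83 and 10.05, with both Lgr5-positive groups above both Lgr5-negative ones. With vismodegib in Lgr5-positive cells 4 fell and 0 rose, against 4.51% and 6.37% of all genes. Those that fell were Tll1, a procollagen-processing protease, Tspan15 (-1.27 ± 0.20), Furin (-0.76 ± 0.18), which removes the prodomains of many metalloproteinases, and Rhbdf1 (-0.69 ± 0.12). Tll1 stood at 8.53 and 6.87 in untreated and at 3.97 and 4.94 in vismodegib Lgr5-positive cells, the latter at about the filter value, so the size of its fall is not given. In Lgr5-negative cells only Adamtsl4 rose (0.59 ± 0.11, adjusted p = 0.0414), against 1.26% of all genes. The difference between its drug effects was -0.92 ± 0.16 (adjusted p = 0.0439, or 0.063 with the mouse as a block). Between the populations of vismodegib mice Timp2 differed by 1.04 (adjusted p = 0.0866, or 0.0382 with the mouse as a block).

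Among Adam genes, none of 15 tested fell with vismodegib in Lgr5-positive cells (against 4.51% of all genes). In these cells 4 rose (26.7%, against 6.37%). They were Adam8 (2.67-fold), Adam10 (1.61-fold), Adam17 (1.60-fold) and Adam15 (1.52-fold). Adam8, Adam10 and Adam15 were also lower in untreated Lgr5-positive than Lgr5-negative cells. No Adam gene passed for the drug in Lgr5-negative cells (against 3.32% of all genes). There 2 of 15 had an unadjusted p under 0.05, as had 2699 of all 14403 genes.

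Adam10 is the sheddase that starts Notch cleavage and cuts cadherins. It stood at 9.83 and 9.78, 9.03 and 8.77, 10.07 and 9.72, and 9.56 and 9.61, with the untreated Lgr5-positive arrays below all others. The drug difference in Lgr5-positive cells was 0.69 ± 0.15 (adjusted p = 0.0288) and the untreated population difference -0.91 ± 0.15 (adjusted p = 0.00837). Its 2 other probe sets gave drug differences of 0.84 and 0.96.

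Adam17 releases tumour necrosis factor and ligands of the epidermal growth factor receptor. It stood at 9.78 and 9.80, 9.50 and 9.09, 9.92 and 10.03, and 10.02 and 9.92, again lowest in untreated Lgr5-positive cells. The drug difference there was 0.67 ± 0.15 (adjusted p = 0.0304), with 0.96 and 0.86 from its other probe sets. In untreated mice Lgr5-positive minus Lgr5-negative was -0.50 (adjusted p = 0.063). Its other probe sets gave -0.76 and -0.49 (adjusted p = 0.01 and 0.0517 over all probe sets). With the mean of the probe sets this difference passed (-0.58, adjusted p = 0.0166).

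Adam8, a sheddase known best from myeloid cells, stood at 8.81 and 8.74, 6.85 and 7.70, 8.64 and 8.81, and 9.01 and 8.38. Untreated Lgr5-positive cells were low and the other 3 groups overlapped. With the drug, Lgr5-positive cells differed by 1.42 ± 0.30 (adjusted p = 0.0233), and the untreated population difference was -1.50 ± 0.30 (adjusted p = 0.0148). Macrophage markers moved the same way in both comparisons (medians 2.60 and -0.91). In Lgr5-negative cells the drug difference was -0.05 for Adam8, against a median of 0.88 for these markers. The part of macrophages in the Adam8 value was not tested.

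Adam15 (metargidin) binds integrins and sheds cadherins. It stood at 8.67 and 8.49, 8.15 and 8.09, 8.49 and 8.58, and 8.68 and 8.78. Untreated Lgr5-positive arrays were the lowest. The drug difference in Lgr5-positive cells was 0.60 ± 0.12 (adjusted p = 0.0189), and 0.15 to 0.69 from its other probe sets. Its untreated population difference of -0.46 ± 0.12 (adjusted p = 0.0384) was 0.05 to -0.19 in those probe sets, and its adjusted p was 0.0522 with the mouse as a block. The probe sets of this gene thus disagree.

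With 1 array left out, the untreated population differences of Adam10 and Adam8 passed in 6 of 8 fits each, not without either untreated Lgr5-negative array (adjusted p up to 0.064 and 0.0908). The drug effects of Adam10 and Adam17 passed in 3 each, not without either untreated Lgr5-negative array, either vismodegib Lgr5-positive array or the untreated Lgr5-positive array of mouse 2 (adjusted p up to 0.138 and 0.167). The Adam8 drug effect passed in 4, not without either untreated Lgr5-negative array or the untreated or vismodegib Lgr5-positive array of mouse 1 (adjusted p up to 0.143). The Adam15 drug effect passed in 5, not without either vismodegib Lgr5-positive array or the untreated Lgr5-positive array of mouse 2 (adjusted p up to 0.115). Its population difference passed in 2, those without a vismodegib Lgr5-negative array (adjusted p otherwise up to 0.202).

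Genes whose products Adam proteases shed were read from a list with 18 tested. In untreated Lgr5-positive cells 5 were lower and 2 higher, against 10.9% and 6.21% of all genes (list median -0.36, against 0.02). The lower ones were Ereg, the growth factor epiregulin, which was under the filter value there, Il6ra (-1.41 ± 0.16), the interleukin-6 receptor, Cdh1 (-0.65 ± 0.11), Hbegf (-0.64 ± 0.14) and Notch2 (-0.49 ± 0.13, adjusted p = 0.0445, or 0.0759 with the mouse as a block). The higher ones were the Notch ligand Jag1 (0.60 ± 0.13) and Sdc4 (0.57 ± 0.13). With vismodegib in Lgr5-positive cells Il6ra (1.57 ± 0.16), the Notch ligand Dll1 (1.16 ± 0.23) and Cdh1 (0.56 ± 0.11) rose and Jag1 (-0.79 ± 0.13) fell. Over all genes 6.37% rose and 4.51% fell.

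In Lgr5-negative cells Hbegf (-0.70 ± 0.14) and Ereg fell with the drug. Ereg stood at 5.84 and 5.96 in untreated Lgr5-negative cells and at 3.80 to 3.94 in all other arrays, under the filter value of 4.85. It was tested only through the group where it is high, so the size of its differences is not given, and its calls, also for the difference between the drug effects, rest on that group alone. The drug effects also differed between populations for Il6ra (1.68 ± 0.23, adjusted p = 0.0225). Il6ra stood at 7.93 and 8.12 in untreated Lgr5-positive cells and at 9.17 to 9.73 in all other arrays.

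Among Adamts proteases, Adamts1, Adamts9, Adamts5 and Adamts7 passed in some comparison, of 9 tested. Adamts1 fell with vismodegib in both populations, 3.15-fold in Lgr5-positive and 1.91-fold in Lgr5-negative cells. Adamts9 rose 3.23-fold in Lgr5-positive cells. In untreated mice Adamts5 (3.63-fold) and Adamts9 were lower and Adamts1 and Adamts7 higher in Lgr5-positive cells. These are 44.4% of the tested Adamts genes, while 17.1% of all genes passed there.

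Adamts1 cuts the proteoglycans versican and aggrecan. It stood at 10.15 and 10.06, 11.02 and 10.64, 9.39 and 8.96, and 9.24 and 9.12. Every vismodegib array lay below every untreated one, and the populations of vismodegib mice overlapped. The drug difference was -1.65 ± 0.18 (adjusted p = 0.00178) in Lgr5-positive and -0.93 ± 0.18 (adjusted p = 0.0425) in Lgr5-negative cells. These did not differ past the threshold (-0.72, adjusted p = 0.211). The untreated population difference was 0.72 ± 0.18 (adjusted p = 0.0352).

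Adamts9, a secreted proteoglycan-cutting enzyme, stood at 8.23 and 7.90, 6.45 and 7.31, 7.62 and 7.88, and 8.44 and 8.70. Untreated Lgr5-positive cells were lowest and vismodegib Lgr5-positive cells highest, with no overlap with any other group. With the drug, Lgr5-positive cells differed by 1.69 ± 0.27 (adjusted p = 0.00885), against 0.43 in its other tested probe set. Between the untreated populations it differed by -1.18 ± 0.27 (adjusted p = 0.0268), against -0.50 (adjusted p = 0.0558) for the mean of its probe sets. The difference of drug effects was 2.00 ± 0.39 (adjusted p = 0.0599, or 0.0481 with the mouse as a random block).

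Adamts5, the main aggrecanase of mouse cartilage, stood at 8.88 and 9.71, 7.72 and 7.14, 8.48 and 7.86, and 7.66 and 7.13. Untreated Lgr5-negative cells were above the other 3 groups, and the Lgr5-positive groups overlapped. In untreated mice Lgr5-positive minus Lgr5-negative was -1.86 ± 0.35 (adjusted p = 0.0126), and -1.77 and -1.70 in its other tested probe sets. The drug difference in Lgr5-positive cells was -0.03. In Lgr5-negative cells it was -1.13 ± 0.35 and did not pass (adjusted p = 0.14). The other tested probe sets gave -0.74 and -1.50 there (adjusted p = 0.295 and 0.0151 over all probe sets). Adamts7, which cuts cartilage oligomeric matrix protein, stood at 7.30 and 7.12, 7.75 and 7.91, 6.77 and 7.0, and 6.98 and 7.38. Its untreated population difference was 0.62 ± 0.17 (adjusted p = 0.0448) and its drug difference in Lgr5-positive cells -0.65 (adjusted p = 0.0509, or 0.0487 with the mouse as a random block). Adamts18, chosen after its values were seen, passed nowhere, but its untreated population difference of 0.85 had an adjusted p of 0.0355 with the mouse as a block.

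The Adamts1 drug effect in Lgr5-positive cells passed in 8 of 8 fits that left out 1 array. In Lgr5-negative cells it passed in 3, not without either untreated Lgr5-negative array, either vismodegib Lgr5-positive array or the vismodegib Lgr5-negative array of mouse 2 (adjusted p up to 0.229). Its population difference passed in 3, not without either untreated Lgr5-negative array, either vismodegib Lgr5-positive array or the untreated Lgr5-positive array of mouse 1 (adjusted p up to 0.189). The Adamts9 drug effect passed in 7, not without the vismodegib Lgr5-positive array of mouse 2 (adjusted p = 0.0615). Its population difference passed in 5, not without either untreated Lgr5-negative array or the untreated Lgr5-positive array of mouse 1 (adjusted p up to 0.141, value -0.75 without the last). Adamts5 passed in 6, not without the untreated arrays of mouse 2 (adjusted p up to 0.092), and Adamts7 in 4, those that kept all untreated arrays (adjusted p otherwise up to 0.244).

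**Figure D4:**
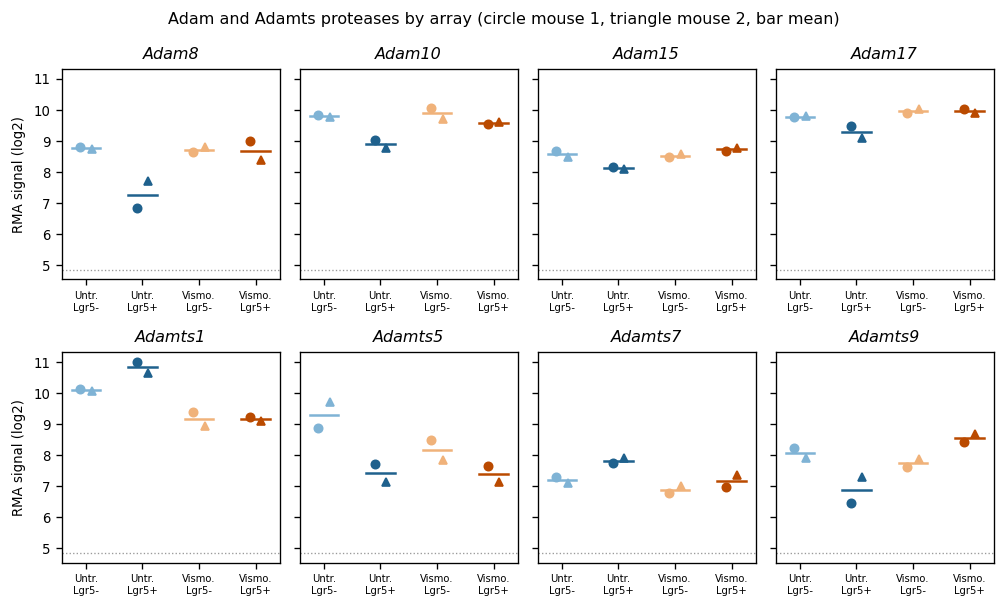
RMA signal (log2) of 4 Adam and 4 Adamts proteases by group and array; circles are mouse 1, triangles mouse 2, bars the group mean, and the dotted line the filter at 4.85. The Adam genes and Adamts9 have their lowest values in untreated Lgr5-positive cells, and Adamts1 lies lower in all 4 vismodegib arrays than in the untreated ones.

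Among cathepsins, 10 of 21 members were tested. In untreated Lgr5-positive cells Ctsc and Ctsd were lower and Ctsl, Ctsf and Ctsz higher (50% of those tested, against 17.1% of all genes). With vismodegib Ctsc (3.04-fold) and Ctsk rose in Lgr5-positive cells and Ctsl fell 2.20-fold in Lgr5-negative cells. The 8 placental cathepsins (Cts3, Cts6, Cts7, Cts8, Ctsj, Ctsm, Ctsq and Ctsr), known from placenta, lay between 3.85 and 4.74 in every array.

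Ctsc (dipeptidyl peptidase I) activates serine proteases of leukocyte granules. It stood at 9.21 and 9.48, 5.89 and 6.86, 9.06 and 8.42, and 7.99 and 7.96. Untreated Lgr5-positive cells were the lowest group, vismodegib Lgr5-positive cells lay next, and the Lgr5-negative groups were highest. The untreated population difference was -2.98 ± 0.32 (7.87-fold, adjusted p = 0.00185) and the drug difference in Lgr5-positive cells 1.60 ± 0.32 (adjusted p = 0.021). The drug effects differed by 2.21 ± 0.46 (adjusted p = 0.0708, or 0.0278 with the mouse as a block), and a second probe set gave 2.64 (adjusted p = 0.027 over all probe sets). Macrophage markers also had their lowest mean in untreated Lgr5-positive cells, at 5.88 and 5.51. Their highest mean was in vismodegib Lgr5-positive cells, at 8.44 and 8.02, where Ctsc lay below both Lgr5-negative groups. In Lgr5-negative cells the drug difference was -0.61 for Ctsc, against a median of 0.88 for these markers. The part of macrophages in the Ctsc value was not tested.

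Ctsk, the collagen-cutting cathepsin of osteoclasts, also made by macrophages and fibroblasts, stood at 4.58 and 4.53, 4.92 and 5.04, 4.69 and 4.90, and 8.06 and 6.36. Only the vismodegib Lgr5-positive arrays stood clearly above the filter value, and they differed widely from each other. The arrays compared with them lay at about that value, so the sizes of the differences below are uncertain. The drug difference was 2.23 ± 0.46 (adjusted p = 0.0221), and the population difference in vismodegib mice 2.42 (adjusted p = 0.0894). The latter had an adjusted p of 0.0346 without the vismodegib Lgr5-positive array of mouse 1 and of 0.00217 without that of mouse 2, and the drug difference was then 1.37 and 3.08. The macrophage mean was 8.44 and 8.02 in the vismodegib Lgr5-positive arrays and 7.77 and 7.64 in the vismodegib Lgr5-negative arrays. The fibroblast mean hardly moved, at 6.06 to 6.09, 6.17 to 6.19, 5.97 to 6.12 and 6.23 to 6.24 in the 4 groups. The part of either cell type in the Ctsk value was not tested.

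Ctsl, a broad cysteine protease needed for normal hair follicle cycling in mice, stood at 10.38 and 10.45, 10.99 and 11.00, 9.41 and 9.14, and 10.91 and 10.55. The vismodegib Lgr5-negative arrays were lowest and the Lgr5-positive groups highest. The drug difference was -1.14 ± 0.15 in Lgr5-negative cells (adjusted p = 0.0129) and -0.26 in Lgr5-positive cells. The population difference was 0.58 ± 0.15 in untreated (adjusted p = 0.0411) and 1.46 ± 0.15 in vismodegib mice (2.75-fold, adjusted p = 0.0158). The difference between these did not pass (0.87, adjusted p = 0.103). A dimmer probe set gave 0.18 in vismodegib mice, and the mean of both probe sets 0.82 (adjusted p = 0.0897). With that mean the drug difference in Lgr5-negative cells was -0.72 (adjusted p = 0.0536) and the untreated population difference 0.46 (adjusted p = 0.0844), so that no Ctsl call passed.

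Ctsd, the main aspartic protease of lysosomes, whose promoter is shown above, stood at 10.60 and 10.69, 9.37 and 10.04, 10.95 and 10.99, and 10.52 and 10.11, lowest in an untreated Lgr5-positive array. Between the untreated populations it differed by -0.94 ± 0.23 (adjusted p = 0.0315). Ctsz, a lysosomal carboxypeptidase, stood at 8.51 and 8.81, 9.70 and 9.64, 9.58 and 9.32, and 10.39 and 9.72, and untreated Lgr5-negative cells were the lowest group. Its untreated population difference was 1.00 ± 0.23 (adjusted p = 0.0239), read by a probe set that can bind related transcripts. Its other probe sets gave 0.83 and 1.51 (adjusted p = 0.0502 and 0.0284 over all probe sets). The Ctsz drug difference in Lgr5-negative cells was 0.78 (adjusted p = 0.117). It was 0.81 and 1.73 in the other probe sets (adjusted p = 0.119 and 0.0491 over all probe sets). Ctsf, a lysosomal cysteine protease, stood at 7.55 and 7.33, 8.05 and 8.25, 7.85 and 8.03, and 7.98 and 8.23. Its untreated population difference of 0.71 ± 0.15 (adjusted p = 0.0188) was 0.11 in its other probe set.

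Ctsb, a cysteine protease found in most cells, stood at 11.33 and 11.42, 11.53 and 11.67, 11.51 and 11.56, and 11.65 and 11.20, and passed in none. A dimmer Ctsb probe set gave a drug difference of -0.75 in Lgr5-positive cells (adjusted p = 0.0143 over all probe sets). The same probe set gave an untreated population difference of 0.78 (adjusted p = 0.0104), so the probe sets disagree. With the mean of the Ctsb probe sets the untreated population difference was 0.51 (adjusted p = 0.0305). Ctsh, a lysosomal aminopeptidase, stood at 10.04 and 10.37, 8.68 and 9.75, 9.75 and 9.51, and 9.72 and 9.75. Its untreated population difference of -0.99 ± 0.31 had an adjusted p of 0.0689, or 0.0185 with the mouse as a block. Ctsh was chosen after its values were seen.

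The Ctsc population difference passed in 8 of 8 fits that left out 1 array. Its drug effect passed in 6, not without either vismodegib Lgr5-positive array (adjusted p up to 0.116), and that of Ctsk in 6, not without either untreated Lgr5-positive array (adjusted p up to 0.0789). In vismodegib mice Ctsl passed in 5, not without either untreated Lgr5-negative array or the vismodegib Lgr5-positive array of mouse 1 (adjusted p up to 0.0695). Its drug effect passed in 5, not without either untreated Lgr5-negative array or the vismodegib Lgr5-negative array of mouse 2 (adjusted p up to 0.126). The untreated differences of Ctsl and Ctsz passed in 4 each, those that kept all untreated arrays (adjusted p otherwise up to 0.174 and 0.132). Ctsd and Ctsf passed in 5 each, not without either untreated Lgr5-negative array, nor without the untreated Lgr5-positive array of mouse 1 for Ctsd and of mouse 2 for Ctsf (adjusted p up to 0.17 and 0.144). The Ctsd value was -0.60 without the array of mouse 1 just named.

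**Figure D5:**
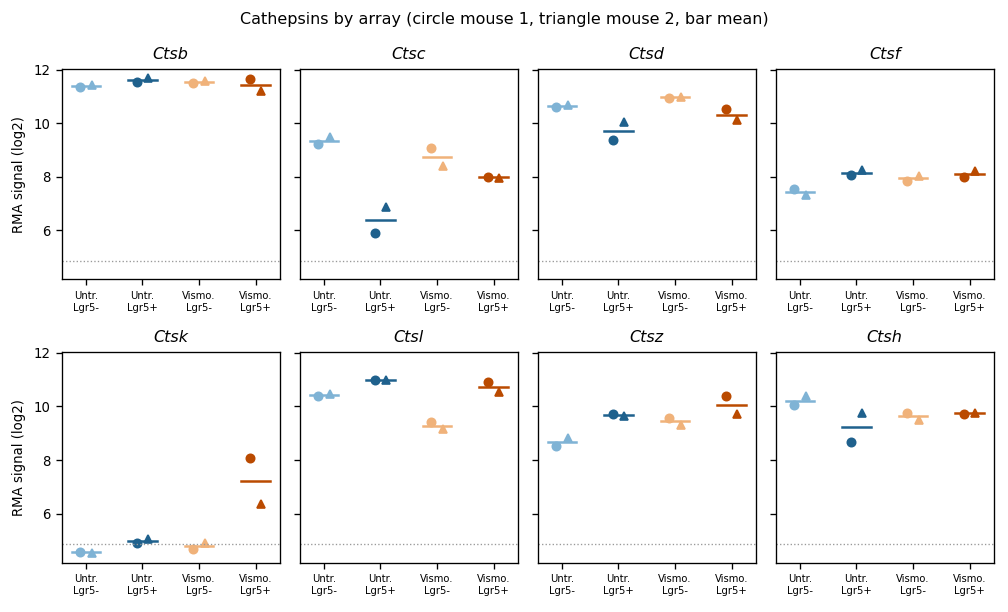
RMA signal (log2) of 8 cathepsins by group and array; circles are mouse 1, triangles mouse 2, bars the group mean, and the dotted line the filter at 4.85. Ctsc is lowest in untreated Lgr5-positive cells, Ctsk stands clearly above the filter only in vismodegib Lgr5-positive cells, and Ctsl is lowest in vismodegib Lgr5-negative cells.

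Cystatins, lysosomal enzymes and their regulators were read from a list with 19 tested. With vismodegib in Lgr5-positive cells 5 rose and 0 fell, against 6.37% and 4.51% of all genes (list median 0.32, against -0.01). They were Cst6 (3.30 ± 0.35), the epidermal cystatin that inhibits cathepsin L and legumain, Mitf (2.14 ± 0.23), a relative of Tfeb, Hexa (1.26 ± 0.27), Lgmn (0.91 ± 0.23), the protease legumain, and the lysosomal membrane protein Lamp2 (0.87 ± 0.11). Mitf is on the melanocyte list too, of which it was the only member that rose among 7.

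In Lgr5-negative cells Cst6 rose (2.35 ± 0.35) and Csta1, a stefin of the cornified layer, fell (-1.75 ± 0.26). In untreated Lgr5-positive cells 4 of the 19 were lower and 0 higher, against 10.9% and 6.21% of all genes. The lower ones were the stefins Stfa3 (-3.19 ± 0.61) and Csta1 (-2.19 ± 0.26), Cst6 (-1.89 ± 0.35) and M6pr (-0.44 ± 0.11). The M6pr adjusted p was 0.0379, or 0.0563 with the mouse as a block. Cst6 stood at 8.87 and 8.94, 6.65 and 7.39, 11.34 and 11.18, and 10.84 and 9.80, with every vismodegib array above every untreated one.

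The 35 tested members that passed nowhere had drug differences of -0.67 to 0.83 in Lgr5-positive and -1.20 to 1.00 in Lgr5-negative cells. Their population differences ran from -1.08 to 0.85 in untreated and from -0.44 to 0.88 in vismodegib mice. These are values of 1 probe set per gene. A dimmer Adamts10 probe set gave an untreated population difference of 0.74 (adjusted p = 0.0112 over all probe sets). The mean of the Adamts10 probe sets gave 0.46 (adjusted p = 0.0339). Of the 39 untested members 35 were at or under 4.85 in every array, and the others were Adam12, Mmp10, Mmp12 and Mmp13. The highest untested value was 4.63 among kallikreins (Klk1b8), 4.84 among Adamts genes (Adamts3), 4.74 among cathepsins (Cts3), 5.11 among Adam genes (Adam12) and 6.62 among Mmp genes (Mmp12).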

How the data were processed

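RNA of 8 sorted samples (4 groups, 2 mice each) was amplified, per the labels' protocols, and measured on Affymetrix perfect-match arrays. The deposited values are log2 signals made by the authors with RMA, per the submitters' processing notes, and were used as deposited. Array medians lay between 6.13 and 6.20. Probe sets were named from the platform annotation, and of 45141 probe sets 104 were array controls, 28898 had 1 symbol, 551 several and 15588 none.

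The filter of 4.85 is the 25th percentile of the table. A limma model (version 3.58.1, run under R 4.3.3) of 4 group means was fitted with lmFit and moderated with eBayes; tests were two-sided, residual degrees of freedom were 4 and prior ones 3.53. The Benjamini-Hochberg adjustment covered 14403 genes. The number of arrays limits the precision. The procedure was tested on simulated data.

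In each family every member past the threshold and the 3 with the highest mean were named, and up to 4 per partner list with the largest change; other names are marked in the text, except Klk6 and the further partner genes, which were added after their values were seen. Members and lists were chosen with earlier results of these data known. Both populations of a mouse share the animal, which pairs them (correlation of deviations 0.142 in untreated and 0.211 in vismodegib mice); mouse numbers do not pair mice across treatments.

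Alternatives were no filter or one at the median, the mean of probe sets or every probe set, cyclic loess, an intensity trend, array weights, only the 4 arrays compared, mouse blocks, a 2-fold minimum and leaving out each array. The zinc-binding motif of the proteins was not analysed here.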

Additional observations from a re-analysis of the deposited data

Results flagged for a closer look

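The vismodegib effect differed between Lgr5-positive and Lgr5-negative cells for 2 proteases by the limma test of the difference itself. For Klk11 the difference between the effects was 1.74 (log2, adjusted p = 0.0295), with drug differences of 2.51 in Lgr5-positive and 0.77 in Lgr5-negative cells. For Mmp2 it was 1.87 (adjusted p = 0.0171), with 0.97 in Lgr5-positive and -0.90 in Lgr5-negative cells. Macrophage markers had a median difference between the effects of 1.49 in the same arrays. Their median drug difference was 2.60 in Lgr5-positive and 0.88 in Lgr5-negative cells. The part of macrophages in either value was not tested.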

How the results depend on the processing

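No call on a member reversed its direction under any alternative run. Of 39 calls, 39 were kept with array weights, with every probe set, with the filter at the median and with the mouse as a random block, 37 with an intensity trend, 36 without a filter, 35 with cyclic loess, 33 with the mean of probe sets and 25 of 37 with only the 4 arrays compared. With a 2-fold minimum, 8 members passed in place of 14 for the drug in Lgr5-positive cells, 1 in place of 3 in Lgr5-negative cells and 11 in place of 19 for the untreated populations. With only the 4 arrays compared, 1 passed for the drug in Lgr5-negative cells and 0 for the vismodegib populations, where the mean of probe sets also gave 0 in place of 1. The difference between the drug effects gave 4 in place of 2 with the filter at the median, with the mean of probe sets and with the mouse as a fixed replicate block. The mouse block added Ctsc and Mmp11 there; it changed no call on a member other than those given above beside their results, and among partner genes not given there it added Plau, Tspan33 and Hexa (untreated populations), Lgmn (vismodegib populations) and Csta1 (difference of effects). It gave 21 in place of 19 for the untreated and 1 for the vismodegib populations. With the mouse number as a block the counts were 13, 3, 17, 1 and 2 for the drug in Lgr5-positive and Lgr5-negative cells, the populations untreated and after vismodegib, and the difference of effects. That block lost the Klk8 drug effect (adjusted p = 0.0529), Klk7 (0.0638) and Adam15 (0.058) among members and added none. Leaving out 1 array gave 5 to 16, 0 to 5, 6 to 20, 0 to 2 and 0 to 6 in the same order, and kept 16 to 37 of the 39 calls; the cause of these changes, other than fewer arrays, was not tested. Over all genes, leaving out 1 array gave 543 to 1823 in place of 1566, 65 to 523 in place of 478, 582 to 2852 in place of 2466, 18 to 107 in place of 68 and 2 to 251 in place of 202. Signal over background limits the 39 members that were not tested.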

Other observations

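Ctss, a macrophage cathepsin left out of the members, lay at 9.41 and 9.77, 6.60 and 4.52, 10.53 and 10.08, and 11.44 and 10.93 in the order untreated Lgr5-negative, untreated Lgr5-positive, vismodegib Lgr5-negative and vismodegib Lgr5-positive.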
